A study of Homo sapiens with 45 samples.

Results

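The genes described here are 33 genes of cholesterol and fatty acid synthesis, picked by name: 7 enzymes that make mevalonate and the isoprenoid building blocks, 12 that turn these into squalene and cholesterol, 6 regulators and carriers of sterol, and 8 genes of fatty acid synthesis and desaturation. Each gene was read on its brightest probe set (a group of array probes for 1 transcript) among those annotated to a single gene symbol. By that rule 30 of the 33 were measured, of 19775 genes that have such a probe set, and all 30 were among the 15599 genes bright enough in at least 1 group to be tested. CYP51A1 and FADS1 lie only on probe sets that name several genes, and FDFT1 was not analysed here.

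The arrays profiled HEY and SKOV3, ovarian cancer cell lines, and PC3, a prostate cancer line. Each line has 5 groups of 3 arrays, 45 in all: untransfected cells, cells given a negative control precursor (miR-NC), and cells that received miR-203a, or miR-205, or miR-429 precursor. Precursors are double-stranded RNAs that a cell processes into the mature microRNA. They were delivered at 33 nM with Lipofectamine 2000, in cells grown in RPMI 1640 with fetal bovine serum, and RNA was taken 48 h later. Values are log2 intensities, so a difference of 1 is a doubling, and they compare 1 probe set across arrays, not 1 gene with another. The labels do not say that the 3 arrays of a group came from separate cultures, so p-values measure only the spread between these arrays, which may be technical.

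Cells make cholesterol from acetyl-CoA through mevalonate, isoprenoids, squalene and lanosterol, and make fatty acids from the same acetyl-CoA. The transcription factors SREBP-1 and SREBP-2, encoded by SREBF1 and SREBF2, drive the genes of both routes. Their precursors sit in the endoplasmic reticulum bound to SCAP. When sterol is plentiful the INSIG proteins hold SCAP there, and when sterol falls SCAP carries the precursors to the Golgi, where they are cut and released. INSIG1 is itself an SREBP target, so it usually moves with the enzymes that it restrains.

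The mature sequences of the 3 microRNAs are shown because every comparison rests on them, with the seed (bases 2 to 8, the stretch that pairs with target transcripts) in capitals. They come from RefSeq with coordinates on GRCh38.p14, all on the plus strand: miR-203a at chr14:104117469-104117490, miR-205 at chr1:209432166-209432187 and miR-429 at chr1:1169055-1169076. The labels do not name the arm, and the arms printed are those listed below.
hsa-miR-203a-3p: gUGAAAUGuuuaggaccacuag
hsa-miR-205-5p: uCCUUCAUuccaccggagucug
hsa-miR-429: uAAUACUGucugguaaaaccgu
No seed is shared between them.

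Before the results, 2 facts about the arrays bear on every value. First, the arrays labelled untransfected did not match the transfected arrays with the same line label. On the transfected arrays 45 genes were specific to HEY, 84 to SKOV3 and 133 to PC3. The arrays labelled untransfected HEY had 0 of the 45 HEY genes on and 76 of the 84 SKOV3 genes on, while those labelled untransfected PC3 had all 45 HEY genes and 0 of the 133 PC3 genes on. The untransfected arrays with the SKOV3 label had 27 of the 84 SKOV3 genes on, and 55 of the 133 PC3 genes. No comparison below uses them as a group, though they enter the fit's estimate of spread. Leaving them out kept all 217 member calls and added others. With miR-203a, 12 members were then called in HEY in place of 8, and 20 in PC3 in place of 16. A gene described below as not called may thus be called without them. Among defining markers on the miR-NC arrays, ERBB2, amplified in SKOV3, read 11.34 in SKOV3, 6.83 in HEY and 6.37 in PC3. PAX8, a marker of ovarian tumours, read 10.42 in HEY, 10.73 in SKOV3 and 6.00 in PC3, while HOXB13, a prostate gene, read 6.56 in PC3, 6.70 in SKOV3 and 4.81 in HEY and so does not set PC3 apart. HOXB13 read 11.73 on the arrays labelled untransfected SKOV3. Other markers did not follow the tissue: WT1, an ovarian marker, read with miR-NC 10.31 in HEY, 5.05 in SKOV3 and 9.61 in PC3, and KLK3, a prostate gene, 4.77, 6.87 and 4.30. The line genes were defined on the transfected arrays, so this check cannot tell which set carries a wrong label. Lines are named below by the labels of the transfected arrays, and for PC3 the prostate markers do not settle that label.

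Second, the array's own control probe sets near the 5′ end of GAPDH moved with treatment in 2 of the 3 lines. In SKOV3 the GAPDH 5′ level was 13.74 ± 0.01 (SD, n = 3) with miR-NC and differed from it by no more than 0.04 log2 units with any microRNA. In HEY it was 8.37 ± 0.29 with miR-NC and changed by 0.58 with miR-203a, 3.92 with miR-205 and -2.11 with miR-429. In PC3 it was 5.04 ± 1.18 with miR-NC and changed by 4.95, 3.66 and -0.50. The GAPDH 3′ control moved too, without overlap, by 1.48 and 1.31 in HEY with miR-205 and miR-429. In PC3 it moved by 2.01 and 1.82 with miR-203a and miR-205. In HEY with miR-429 the GAPDH middle control rose by 1.65 while the 5′ control fell. The ACTB 3′ control changed most in PC3 with miR-205, by 0.35. The RNA was amplified from its 3′ end, per the labels' protocols. A 5′ control reads the level of its transcript and how far the labelled RNA reaches from that end. What part these controls have in the changes of the members in HEY and PC3 was not tested. The SKOV3 comparisons are described first, since there the result stands beside 5′ controls that differed by no more than 0.04, though at a level near the upper end of the values on these arrays.

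**Figure D1:**
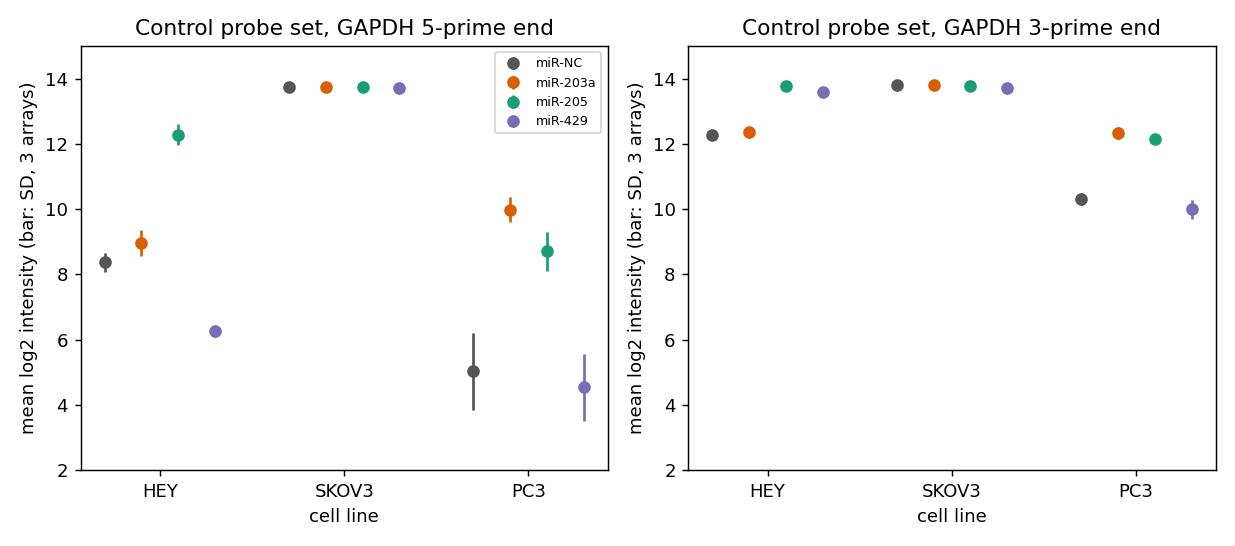
Mean log2 intensity (vertical axis, bars are the SD over 3 arrays) of the array's control probe sets near the 5′ and 3′ ends of GAPDH, by cell line (horizontal axis) and treatment (colour). The 4 SKOV3 groups sit together near 13.7 in both panels, while the 5′ control spans 6.25 to 12.3 across the HEY groups and 4.54 to 9.99 across the PC3 groups. The 3′ control spans 12.3 to 13.8 across the HEY groups and 10.0 to 12.3 across the PC3 groups.

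In SKOV3 cells a common group of synthesis genes rose with each of the 3 microRNAs while INSIG1 fell. ACLY, HMGCS1, IDI1, NSDHL and SC5D were called higher with miR-203a, with miR-205 and with miR-429. These 5 are 16.7% of the 30 members, against 3.36% of all genes tested that were higher with all 3. INSIG1 was the 1 member lower with all 3, against 0.449% of all genes. The 3 comparisons share the same 3 miR-NC arrays, so they are not independent of each other. HMGCS1 with miR-205 lost its call when each line was fitted alone, when replicates were blocked, under quantile normalization and without the filter, and each of these left 4 of the 5. The calls also depend on the probe set: with the mean of all probe sets of a gene none of the 5 was called higher with all 3 microRNAs. Without _x_at and _s_at probe sets HMGCS1 and NSDHL were, IDI1 and SC5D were not, and ACLY was not tested. INSIG1 was lower with all 3 under each of the 10 processing alternatives. A gene is called here when limma's adjusted p, taken over all 15599 genes, is under 0.05.

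With miR-203a in SKOV3, 10 members were called higher and 1 lower, against 7.06% of all genes called higher and 4.88% lower (11.9% in all). The median member changed by 0.27 and the median gene by 0.00. With miR-205, 9 were higher and 4 lower, against 16.8% and 8.81% of all genes (25.6% in all), with a median of 0.10 against 0.03. Under quantile normalization these were 5 and 4 with a median of -0.02, and with the mean of all probe sets 3 and 3. With miR-429, 7 were higher and 4 lower, against 14.9% and 7.18% (22.1% in all), with a median of 0.05 against -0.01, under quantile normalization 6 and 5 with a median of -0.06, and with the mean of all probe sets 3 and 3. The share of members called higher exceeded the background most with miR-203a, where 6 of the 10 squalene-to-cholesterol enzymes rose and none fell. The background depends on brightness. A stricter filter on dim probe sets left 10887 genes, with all 30 members among them. Of these genes, 1183 were called higher with miR-203a, 2619 with miR-205 and 2386 with miR-429. The members called higher were again 10, 9 and 7. Among these brighter genes the excess with miR-429 was small, and that with miR-203a remained the largest.

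**Figure D2:**
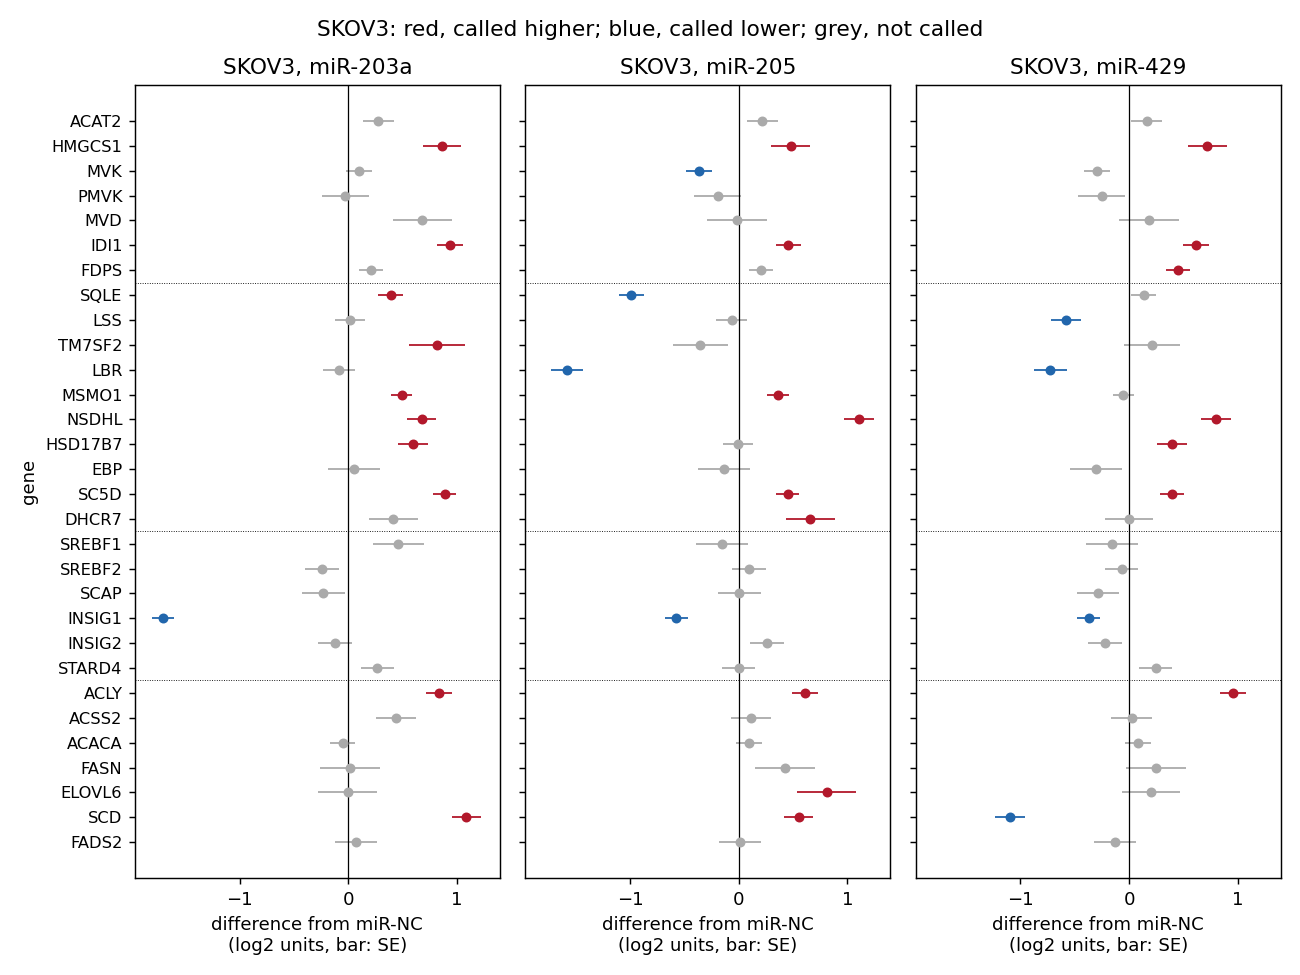
Difference from miR-NC in SKOV3 (horizontal axis, log2 units, bars are the SE) of the 30 measured genes (vertical axis), 1 panel per microRNA; red points were called higher, blue lower and grey not called. INSIG1 lies at -1.70 with miR-203a, LBR at -1.58 with miR-205 and SCD at -1.10 with miR-429, while ACLY, HMGCS1, IDI1, NSDHL and SC5D are red in each panel.

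INSIG1, the protein that holds SCAP in the endoplasmic reticulum, had the largest change of any member with miR-203a in SKOV3. It read 8.96, 9.01 and 8.93 on the miR-NC arrays and 7.06, 7.47 and 7.26 on the miR-203a arrays. Every miR-203a array lay below every other transfected SKOV3 array. The difference was -1.70 (SE 0.11, adjusted p = 1.09e-14). With miR-205 it read 8.35, 8.42 and 8.42, a change of -0.57 (SE 0.11, adjusted p = 5.88e-05), and with miR-429 8.72, 8.47 and 8.60, a change of -0.37 (SE 0.11, adjusted p = 0.0081). Neither group overlapped miR-NC, and the miR-429 call was lost without miR-429 replicate 2 (adjusted p up to 0.0601). A gene's other probe sets are given by their ID, with p-values adjusted over all 54675 probe sets. Both others of INSIG1 were below miR-NC with each microRNA: 201627_s_at by -1.29, -0.84 and -0.44, and 201625_s_at by -0.25, -0.62 and -0.28.

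HMGCS1, which makes the HMG-CoA that enters the pathway, read 9.21, 8.88 and 9.03 with miR-NC and 9.59, 10.19 and 9.92 with miR-203a. Its groups did not overlap, and the change was 0.86 (SE 0.18, adjusted p = 0.00053). It read 9.60, 9.49 and 9.46 with miR-205 and 9.95, 9.66 and 9.67 with miR-429, changes of 0.48 (adjusted p = 0.0427) and 0.72 (adjusted p = 0.00233). The miR-205 call was lost without miR-NC replicate 2 or 3 or miR-205 replicate 1, 2 or 3 (adjusted p up to 0.164). The gene's other probe set, 205822_s_at, was above miR-NC by 0.54, 0.08 and 0.29 and passed no test.

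IDI1, which turns the 2 forms of the isoprenoid unit into each other, read 10.63, 10.64 and 10.68 with miR-NC and 11.48, 11.63 and 11.65 with miR-203a, again without overlap. The change was 0.94 (SE 0.12, adjusted p = 1.59e-07), with 0.46 (adjusted p = 0.003) for miR-205 and 0.62 (adjusted p = 0.000118) for miR-429. These are values of a probe set whose ID ends in _x_at, a mark of probes that may bind several transcripts. The other 3 IDI1 probe sets did not all follow: 204615_x_at rose by 0.91 with miR-203a, while 242065_x_at changed by -0.52 with miR-205 and 233014_at by -0.13 and -0.07.

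ACLY, which splits citrate into the acetyl-CoA that both routes use, read 10.85, 11.22 and 10.81 with miR-NC. It read 11.85, 11.80 and 11.75 with miR-203a, 11.60, 11.53 and 11.58 with miR-205 and 12.15, 11.76 and 11.85 with miR-429. All 9 treated arrays lay above the 3 controls. The changes were 0.84 (SE 0.12, adjusted p = 2.47e-06), 0.61 (SE 0.12, adjusted p = 0.000168) and 0.96 (SE 0.12, adjusted p = 1.24e-07). Its other 2 probe sets were above miR-NC in each case.

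Among the sterol enzymes, NSDHL, which helps strip methyl groups from lanosterol's product, read 8.62, 8.35 and 8.32 with miR-NC and 9.51, 9.44 and 9.66 with miR-205. The groups stood well apart, by 1.10 (SE 0.14, adjusted p = 6.98e-08). With miR-203a it read 9.02, 9.10 and 9.20 and with miR-429 9.24, 9.34 and 9.12, changes of 0.68 (adjusted p = 0.00045) and 0.80 (adjusted p = 2.62e-05). Its other probe set, 209279_s_at, changed by 0.30, 0.55 and -0.12 in the same order and passed no test.

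SC5D, the desaturase of a late sterol step, read 11.60, 11.66 and 11.57 with miR-NC and 12.54, 12.52 and 12.43 with miR-203a, with no overlap and a change of 0.89 (SE 0.11, adjusted p = 8.74e-08). It changed by 0.45 (adjusted p = 0.00151) with miR-205 and 0.40 (adjusted p = 0.0058) with miR-429. On its other probe set, 215064_at, the change was 0.24 with miR-203a but -0.39 and -0.41 with miR-205 and miR-429, so the direction with those 2 microRNAs rests on 1 probe set.

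MSMO1, which removes methyl groups before NSDHL acts, read 10.72, 10.85 and 10.89 with miR-NC, 11.34, 11.42 and 11.18 with miR-203a and 11.10, 11.29 and 11.17 with miR-205. Both treated groups lay above the control, by 0.49 (SE 0.10, adjusted p = 0.00044) and 0.36 (SE 0.10, adjusted p = 0.00529). TM7SF2, a sterol reductase, rose by 0.81 (adjusted p = 0.0301) with miR-203a. That call was lost without miR-NC replicate 2 or 3 or miR-203a replicate 2 or 3 (adjusted p up to 0.156). HSD17B7, which acts in the same demethylation as NSDHL, rose by 0.60 (adjusted p = 0.00223) with miR-203a and by 0.39 (adjusted p = 0.0375) with miR-429, the second lost without miR-NC replicate 1, 2 or 3 or miR-429 replicate 1 or 3 (adjusted p up to 0.189). The 1 HSD17B7 probe set carries the _x_at mark.

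SQLE and LBR parted from that group with miR-205. SQLE, the epoxidase that commits squalene to sterol synthesis, read 11.40, 11.27 and 11.35 with miR-NC and 10.46, 10.27 and 10.32 with miR-205, a difference, without overlap, of -0.99 (SE 0.11, adjusted p = 1.92e-08). All 3 other SQLE probe sets were called lower too, with changes of -0.76, -1.13 and -1.20. With miR-203a, in contrast, it read 11.74, 11.80 and 11.65 and rose by 0.39 (adjusted p = 0.0188), a call lost without miR-NC replicate 2 or miR-203a replicate 1 or 2 (adjusted p up to 0.0892). With miR-429 its change of 0.14 (adjusted p = 0.445) did not pass.

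LBR, a nuclear envelope protein that also reduces the same sterol bond as TM7SF2, read 10.49, 10.52 and 10.54 with miR-NC and 9.22, 8.75 and 8.84 with miR-205. The highest miR-205 array stood more than 1 log2 unit below the lowest control. The difference was -1.58 (SE 0.15, adjusted p = 2.67e-10). With miR-429 LBR read 9.84, 9.73 and 9.80, lower without overlap by a smaller difference, -0.72 (SE 0.15, adjusted p = 0.000376), and with miR-203a its change of -0.09 (adjusted p = 0.857) did not pass.

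SCD, which places the first double bond in saturated fatty acids, changed in opposite directions with miR-203a and miR-429 in the same line. It read 8.41, 9.01 and 8.83 with miR-NC, 9.79, 9.77 and 9.96 with miR-203a and 7.63, 7.68 and 7.66 with miR-429. The control group lay between the treated groups without touching either. The changes were 1.09 (SE 0.13, adjusted p = 1.42e-07) and -1.10 (SE 0.13, adjusted p = 8.59e-08). With miR-205 it read 9.34, 9.35 and 9.22 and rose by 0.55 (adjusted p = 0.00193). The other 3 SCD probe sets had the same sign in all 3 comparisons, with 2 of them called higher with miR-203a and 1 called lower with miR-429.

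ELOVL6, which lengthens the products of fatty acid synthase, rose with miR-205 in SKOV3, from 6.54, 6.73 and 7.18 to 7.66, 7.78 and 7.45, by 0.81 (SE 0.27, adjusted p = 0.0237). The arrays did not overlap, but the call was lost without miR-NC replicate 1 or 2 or miR-205 replicate 1 or 2 (adjusted p up to 0.12). DHCR7, the last reductase of the pathway, rose with miR-205 by 0.66 (adjusted p = 0.027), a call lost without miR-NC replicate 1 or 3 or miR-205 replicate 1 or 3 (adjusted p up to 0.0915). LSS, which closes the sterol rings, changed with miR-429 by -0.58 (adjusted p = 0.00177), and FDPS, which joins isoprenoid units, by 0.45 (adjusted p = 0.00247). MVK, the first mevalonate kinase, changed by -0.36 (adjusted p = 0.0225) with miR-205 on its brightest probe set, while its other 3 probe sets had the opposite sign and passed no test. That call was lost without miR-NC replicate 3 or miR-205 replicate 1 or 3 (adjusted p up to 0.124).

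The factors that drive the pathway were not called in SKOV3. SREBF1 changed by 0.46 (adjusted p = 0.262), -0.15 (adjusted p = 0.696) and -0.16 (adjusted p = 0.692) with miR-203a, with miR-205 and with miR-429. SREBF2 changed by -0.24 (adjusted p = 0.422), 0.10 (adjusted p = 0.707) and -0.07 (adjusted p = 0.809), and SCAP by -0.23 (adjusted p = 0.609), 0.01 (adjusted p = 0.985) and -0.29 (adjusted p = 0.332). None of these 9 values passed the test, nor did INSIG2, the second INSIG gene, or STARD4, a carrier of sterol between membranes. FASN, ACACA, ACSS2, FADS2, PMVK, MVD, ACAT2 and EBP were also not called in SKOV3 with any microRNA. Transcript levels say nothing of how much SREBP precursor was cut.

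Promoters are shown for 3 members of the SKOV3 pattern, INSIG1, HMGCS1 and NSDHL, and for SREBF2, the 1 member with the sterol-element letters searched for. Each window runs from 250 bases before to 50 after a RefSeq start on GRCh38.p14, with CCAAT in capitals on either strand (it reads ATTGG on the other) and, for SREBF2, the sterol-element letters as well. INSIG1 lies at chr7:155297628-155297927 on the plus strand, HMGCS1 at chr5:43313363-43313662 on the minus strand (of its 2 windows, that with more CCAAT), NSDHL at chrX:152830813-152831112 on the plus strand and SREBF2 at chr22:41832855-41833154 on the plus strand.
INSIG1: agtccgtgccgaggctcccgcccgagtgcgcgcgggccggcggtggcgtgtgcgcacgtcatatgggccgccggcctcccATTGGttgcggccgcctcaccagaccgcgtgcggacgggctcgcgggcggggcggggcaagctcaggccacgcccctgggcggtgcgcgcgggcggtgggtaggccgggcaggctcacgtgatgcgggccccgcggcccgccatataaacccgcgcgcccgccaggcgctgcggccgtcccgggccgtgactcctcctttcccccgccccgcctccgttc
HMGCS1: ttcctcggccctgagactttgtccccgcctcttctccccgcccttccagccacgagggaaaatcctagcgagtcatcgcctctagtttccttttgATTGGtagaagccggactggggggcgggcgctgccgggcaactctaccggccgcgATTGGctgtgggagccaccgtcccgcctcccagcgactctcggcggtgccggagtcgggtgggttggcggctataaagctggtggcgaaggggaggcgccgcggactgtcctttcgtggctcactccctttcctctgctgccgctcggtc
NSDHL: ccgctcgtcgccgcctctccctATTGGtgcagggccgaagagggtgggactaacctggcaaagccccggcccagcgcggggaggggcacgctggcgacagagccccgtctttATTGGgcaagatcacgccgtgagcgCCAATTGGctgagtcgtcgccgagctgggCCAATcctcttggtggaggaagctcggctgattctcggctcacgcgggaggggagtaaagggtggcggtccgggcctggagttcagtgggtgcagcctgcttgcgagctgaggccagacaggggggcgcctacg
SREBF2: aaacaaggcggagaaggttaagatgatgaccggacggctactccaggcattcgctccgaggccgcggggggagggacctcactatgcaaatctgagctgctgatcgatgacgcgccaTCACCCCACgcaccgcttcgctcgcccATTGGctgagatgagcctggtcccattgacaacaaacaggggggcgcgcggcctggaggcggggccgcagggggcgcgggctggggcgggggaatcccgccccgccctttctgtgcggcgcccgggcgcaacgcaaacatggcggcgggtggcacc
CCAAT, the box bound by NF-Y, a usual partner of SREBP, was found once in the INSIG1 window, in 2 places in HMGCS1, in 5 in NSDHL (of which a pair overlap) and once in SREBF2. It stood in the windows of 21 of 29 members with a promoter entry (72.4%), against 39.7% of 27305 genes. The letters TCACNCCAC, a spelling of the sterol regulatory element, stood in SREBF2 alone of the 29, as TCACCCCAC with its first base at -133, against 1.39% of all genes. GGGCGG, the box bound by Sp1, stood in 93.1% of members and 48.3% of all genes. Both strands were searched for each. A match is a description of these letters, and the shares are given with no test.

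Across the 3 lines INSIG1 was the member most often called lower. It fell in 8 of the 9 comparisons with miR-NC, in which 32 of all 15599 genes (0.205%) were called lower at least as often. In HEY it read 11.66, 11.63 and 11.52 with miR-NC, 9.58, 9.76 and 9.58 with miR-205 and 10.69, 10.80 and 10.83 with miR-429. The miR-205 arrays lay lowest, and no pair of these groups overlapped. The changes were -1.96 (SE 0.11, adjusted p = 7.93e-18) and -0.82 (SE 0.11, adjusted p = 2.66e-08). With miR-203a it read 11.21, 11.42 and 11.17, a change of -0.33 (adjusted p = 0.0302) that was lost without miR-NC replicate 1 or 2 or miR-203a replicate 1 or 3 (adjusted p up to 0.139).

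In PC3, INSIG1 read 10.69, 11.01 and 10.90 with miR-NC, 10.39, 10.30 and 10.39 with miR-203a and 10.47, 10.29 and 10.40 with miR-205. Both groups lay below the control without overlap, with changes of -0.51 (adjusted p = 0.000101) and -0.48 (adjusted p = 0.000256), while the miR-429 change of -0.17 (adjusted p = 0.195) did not pass. The probe set 201627_s_at was below miR-NC in all 9 comparisons, from -0.21 to -2.93. The third, 201625_s_at, was above miR-NC in HEY and in PC3 with miR-203a and miR-205, and was called higher in HEY with miR-205 (0.58). INSIG1 was called lower in 7 to 9 of the 9 comparisons across the processing alternatives. The fall with miR-203a differed between lines (limma's F-test, adjusted p = 2.2e-09), as did the fall with miR-205 (adjusted p = 4.32e-11).

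**Figure D3:**
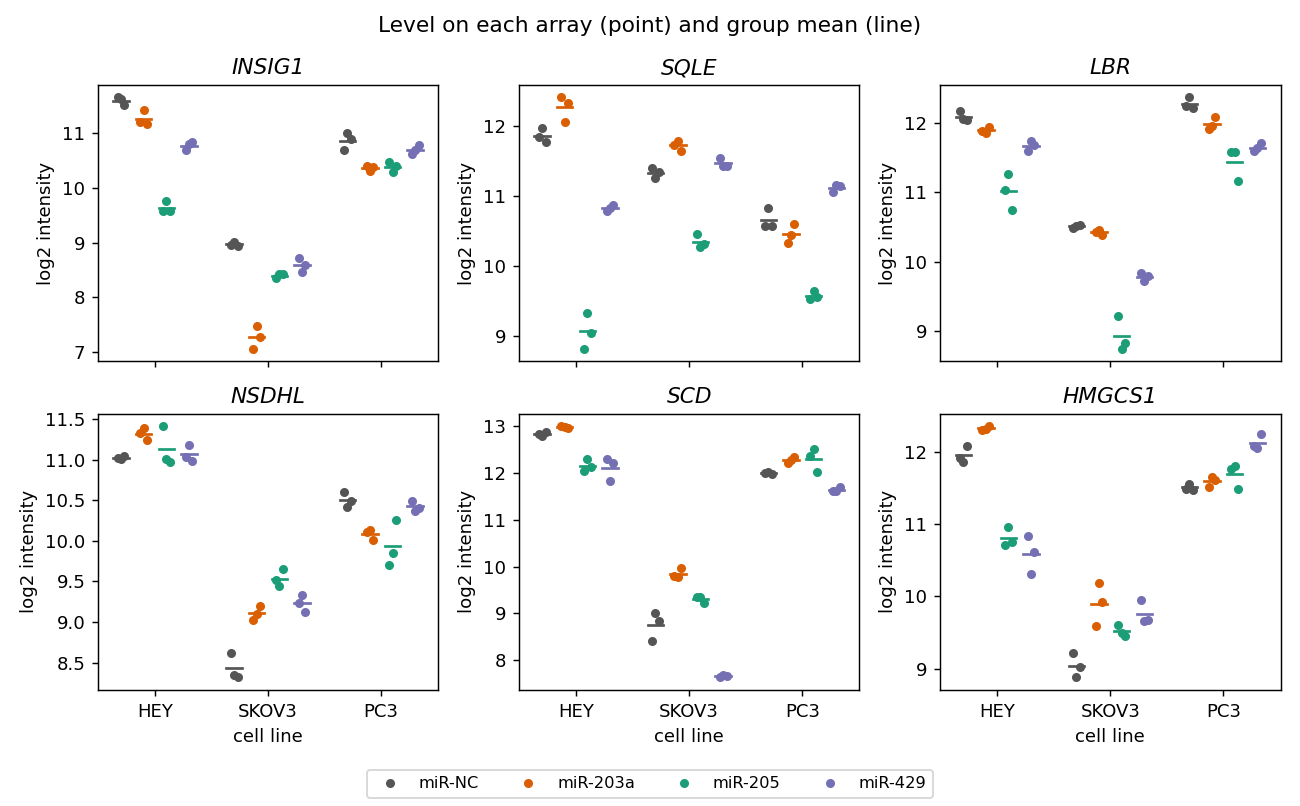
Log2 intensity (vertical axis) of 6 genes on each transfected array (points) with the group mean (line), by cell line (horizontal axis) and treatment (colour). INSIG1 with miR-203a in SKOV3, SQLE with miR-205 in every line and LBR with miR-205 in every line lie below all miR-NC arrays of the same line, and NSDHL lies above its control with every microRNA in SKOV3.

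SQLE and LBR fell with miR-205 in all 3 lines, beside INSIG1. These 3 are 10% of the members, against 2.50% of all genes that were lower with miR-205 in every line. In HEY, SQLE read 11.85, 11.98 and 11.77 with miR-NC and 8.81, 9.33 and 9.05 with miR-205, a difference of -2.80 (SE 0.11, adjusted p = 9.03e-21) and the largest change of any member against miR-NC. In PC3 it read 10.58, 10.83 and 10.57 and 9.53, 9.64 and 9.56, a difference of -1.08 (SE 0.11, adjusted p = 7.59e-10). The groups did not overlap in either line. Of the other SQLE probe sets, 2 of 3 had the same sign in HEY and in PC3, and 213577_at did not (0.11 and 0.05).

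LBR with miR-205 read 11.03, 11.27 and 10.75 in HEY against 12.17, 12.05 and 12.05 with miR-NC, and 11.59, 11.58 and 11.16 in PC3 against 12.24, 12.37 and 12.21. The control arrays were above the treated arrays in both. The changes were -1.08 (SE 0.15, adjusted p = 8.87e-08) and -0.83 (SE 0.15, adjusted p = 1.78e-05). LBR also fell with miR-429 in HEY, to 11.59, 11.74 and 11.69, a change of -0.42 (adjusted p = 0.0173), and in PC3, to 11.59, 11.64 and 11.71, a change of -0.63 (adjusted p = 0.000911). The HEY call was lost without miR-NC replicate 1 or miR-429 replicate 1 (adjusted p up to 0.0604). With miR-203a LBR was called in no line here, but it was called lower in PC3 with a separate fit per line, without the arrays labelled untransfected and under quantile normalization. The array has 1 LBR probe set of this kind. The falls of INSIG1, SQLE and LBR with miR-205 in every line were called under each of the 10 processing alternatives. They stand beside GAPDH 5′ controls that were higher by 3.92 in HEY and 3.66 in PC3 and changed by 0.01 in SKOV3.

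Members called with miR-429 in all 3 lines were FDPS, which rose, and LBR and SCD, which fell, against 1.58% of all genes higher and 2.02% lower in every line. SCD read 12.83, 12.80 and 12.87 with miR-NC and 12.30, 11.83 and 12.21 with miR-429 in HEY, a change of -0.72 (SE 0.13, adjusted p = 2.36e-05). In PC3 it read 11.99, 12.02 and 11.99 and 11.62, 11.61 and 11.70, a change of -0.36 (SE 0.13, adjusted p = 0.0292). Neither pair of groups overlapped, but the PC3 call was lost without miR-NC replicate 1, 2 or 3 or miR-429 replicate 1 or 2 (adjusted p up to 0.0718) and its sign turned, to 0.051, once array medians were subtracted. With the mean of all probe sets the HEY change was -0.26 (adjusted p = 0.193 by limma), which did not pass. FDPS read 9.81, 9.60 and 9.65 and 10.13, 10.08 and 9.72 in PC3, which overlap, with a change of 0.29 (adjusted p = 0.0308) that was lost without miR-NC replicate 2 or 3 or miR-429 replicate 1 or 2 (adjusted p up to 0.163). FDPS was not called in every line with a separate fit per line or under quantile normalization, and LBR was not with a separate fit per line or with array medians subtracted.

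With miR-203a, IDI1 rose and INSIG1 fell in every line, against 1.24% of all genes higher and 1.44% lower. IDI1 read 11.46, 11.64 and 11.52 and 12.13, 12.10 and 12.00 in HEY, and 9.23, 9.58 and 9.41 and 11.03, 11.11 and 10.74 in PC3, with miR-NC and miR-203a. The arrays did not overlap in either line, and the changes were 0.54 (SE 0.12, adjusted p = 0.00126) and 1.55 (SE 0.12, adjusted p = 1.6e-13). On 233014_at, the IDI1 probe set without the _x_at mark, the changes were -0.33 and -0.23. IDI1 was not called higher with miR-203a in every line with the mean of all probe sets or without _x_at and _s_at probe sets. DHCR7 and MSMO1 joined IDI1 when the arrays labelled untransfected were left out. INSIG1 was not called lower with miR-203a in every line with a separate fit per line, with array medians subtracted or with the mean of all probe sets. With miR-205, DHCR7 rose in every line (2.77% of all genes did). It read 7.39, 7.60 and 7.59 and 8.30, 8.13 and 8.01 in HEY and 6.75, 6.94 and 6.72 and 7.43, 7.44 and 7.57 in PC3, changes of 0.62 (adjusted p = 0.0153) and 0.68 (adjusted p = 0.0122). The HEY call was lost without miR-NC replicate 1 or miR-205 replicate 1 (adjusted p up to 0.0621), and DHCR7 was not called in every line under quantile normalization, with a separate fit per line or with the mean of all probe sets.

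**Figure D4:**
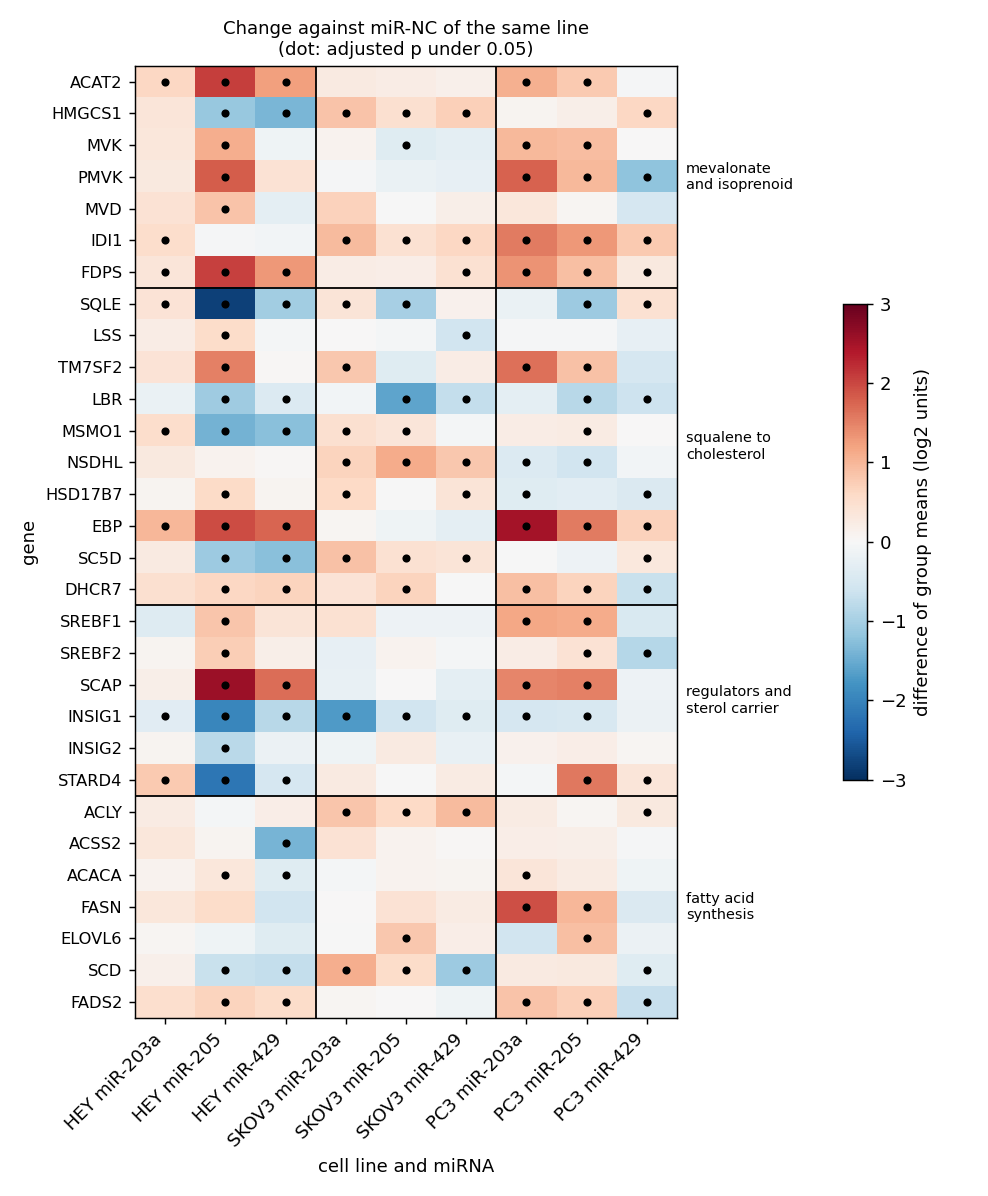
Difference of each measured gene (rows, grouped by role) from miR-NC of the same line for each line and microRNA (columns), as colour on a log2 scale, with a dot where the adjusted p was under 0.05. INSIG1 is blue with a dot in 8 of 9 columns and LBR in 6, while HMGCS1, MSMO1, SC5D and SQLE are blue in HEY with miR-205 and miR-429.

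Of 7 mevalonate and isoprenoid enzymes, 3 rose and none fell with miR-203a in HEY, 2 and none in SKOV3, and 5 and none in PC3. With miR-205 they were 5 and 1, 2 and 1, and 5 and 0 in the same lines, and with miR-429 2 and 1, 3 and 0, and 3 and 1. Of 10 measured enzymes from squalene to cholesterol, 3 and 0, 6 and 0, and 3 and 2 rose and fell with miR-203a, 5 and 4, 4 and 2, and 4 and 3 with miR-205, and 2 and 4, 3 and 2, and 3 and 3 with miR-429. Of 6 regulators and carriers the counts were 1 and 1, 0 and 1, and 2 and 1 with miR-203a, 3 and 3, 0 and 1, and 4 and 1 with miR-205, and 1 and 2, 0 and 1, and 1 and 1 with miR-429. Of 7 measured genes of fatty acid synthesis they were 0 and 0, 2 and 0, and 3 and 0 with miR-203a, 2 and 1, 3 and 0, and 3 and 0 with miR-205, and 1 and 3, 1 and 1, and 1 and 2 with miR-429. These counts stand against the share of all genes called, which with miR-203a was 13.2% in HEY, 11.9% in SKOV3 and 56.1% in PC3, with miR-205 65.8%, 25.6% and 48.4%, and with miR-429 56.8%, 22.1% and 46.0%.

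In HEY cells HMGCS1, MSMO1, SC5D, SQLE and INSIG1 fell with both miR-205 and miR-429, while ACAT2, FDPS, EBP and SCAP rose with both, as read on the brightest probe set of each. With all 3 microRNAs, which share their miR-NC arrays, ACAT2, EBP and FDPS were higher, 10% of members against 2.03% of genes. INSIG1 was lower, 3.33% of members against 4.38% of genes, so not above the background. With a separate fit per line only EBP kept its place among these 4. DHCR7 and FADS2 were also higher with all 3 when the arrays labelled untransfected were left out. With array medians subtracted INSIG1 lost its place, and with the mean of all probe sets EBP and INSIG1 did. With miR-205, 15 members were higher and 9 lower, against 33.6% and 32.2% of all genes (65.8% in all). With miR-429, 6 were higher and 10 lower, against 21.0% and 35.7% (56.8% in all). The members called were 80.0% and 53.3% of the 30, so these counts stood near the background. The median member changed by 0.44 with miR-205 against 0.06 over all genes, and by -0.10 with miR-429 against -0.15.

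HMGCS1 in HEY read 11.92, 11.86 and 12.09 with miR-NC, 10.71, 10.97 and 10.76 with miR-205 and 10.84, 10.32 and 10.61 with miR-429. Both treated groups lay below the control, with changes of -1.15 (SE 0.18, adjusted p = 6.02e-07) and -1.36 (SE 0.18, adjusted p = 3.64e-08). Its other probe set, 205822_s_at, had the opposite sign (0.58 and 0.20) and was not called. MSMO1 read 12.21, 12.23 and 12.31, 10.75, 11.00 and 10.73 and 11.08, 10.86 and 11.05 in the same groups. It fell without overlap, with changes of -1.42 (SE 0.10, adjusted p = 6.92e-15) and -1.25 (SE 0.10, adjusted p = 5.73e-13). With miR-203a MSMO1 moved the other way, to 12.79, 12.79 and 12.76, by 0.53 (adjusted p = 0.000195).

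SC5D in HEY read 11.12, 11.18 and 11.08 with miR-NC, 9.85, 9.99 and 10.23 with miR-205 and 9.68, 9.91 and 10.00 with miR-429. It fell with both, without overlap, with changes of -1.10 (SE 0.11, adjusted p = 3.44e-11) and -1.26 (SE 0.11, adjusted p = 3.1e-12), and its other probe set changed by -2.41 and -2.21. SQLE with miR-429 read 10.78, 10.83 and 10.88, a difference of -1.04 (SE 0.11, adjusted p = 1.28e-09), but 213577_at rose there (1.92). SCD changed with miR-205 by -0.67 (adjusted p = 4.19e-05), and its other 3 probe sets had the opposite sign.

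STARD4, the sterol carrier, read 10.24, 10.35 and 10.39 with miR-NC in HEY, 11.29, 11.02 and 11.00 with miR-203a and 7.70, 8.49 and 8.29 with miR-205. The control lay between the 2 treated groups. STARD4 rose by 0.78 (SE 0.15, adjusted p = 0.000285) with miR-203a, changed by -2.17 (SE 0.15, adjusted p = 4.12e-15) with miR-205 and changed by -0.50 (adjusted p = 0.00457) with miR-429. INSIG2 was called in a single comparison, HEY with miR-205, where it read 8.61, 8.60 and 8.71 against 9.42, 9.54 and 9.40, a difference, without overlap, of -0.81 (SE 0.16, adjusted p = 2.59e-05).

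The genes that rose in HEY with both include SCAP, the escort of the SREBP precursors. SCAP read 6.76, 6.63 and 6.95 with miR-NC, 9.56, 9.27 and 9.19 with miR-205 and 8.34, 8.36 and 8.64 with miR-429. All treated arrays were above the controls, by 2.56 (SE 0.20, adjusted p = 7.08e-14) and 1.67 (SE 0.20, adjusted p = 4.77e-09). ACAT2, the thiolase that starts the pathway, read 9.20, 9.32 and 9.39, 11.29, 11.41 and 11.46 and 10.74, 10.46 and 10.39 in the same groups. It rose by 2.09 (SE 0.14, adjusted p = 3.52e-15) and 1.23 (SE 0.14, adjusted p = 3.33e-09), and with miR-203a by 0.62 (adjusted p = 0.00227). FDPS read 10.78, 10.74 and 10.99, 12.97, 12.85 and 12.87 and 12.21, 12.09 and 12.09. It rose without overlap by 2.06 (SE 0.11, adjusted p = 7.93e-18) and 1.30 (SE 0.11, adjusted p = 3.01e-12).

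EBP, the sterol isomerase, read 9.73, 9.37 and 9.93 with miR-NC, 10.98, 10.55 and 10.49 with miR-203a, 11.59, 11.64 and 11.65 with miR-205 and 11.50, 11.34 and 11.39 with miR-429. All 9 treated arrays were above the 3 controls, by 1.00 (adjusted p = 0.00352), 1.95 (adjusted p = 6.17e-09) and 1.74 (adjusted p = 1.23e-07). With miR-429, however, the other 3 EBP probe sets lay below miR-NC (-0.59, -1.49 and -0.20), so that rise rests on 1 probe set. ACSS2, which makes acetyl-CoA from acetate, was called only there among the 9 comparisons: it read 7.05, 6.70 and 7.19 with miR-NC and 5.57, 5.36 and 5.80 with miR-429, a difference of -1.40 (SE 0.19, adjusted p = 5.7e-08).

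The mevalonate kinases rose with miR-205 in HEY. PMVK read 7.38, 7.15 and 7.33 with miR-NC and 9.47, 9.14 and 8.69 with miR-205, a rise without overlap of 1.81 (SE 0.22, adjusted p = 3.13e-09), and MVK read 5.40, 5.43 and 5.49 and 6.75, 6.51 and 6.33, a rise of 1.09 (SE 0.12, adjusted p = 5.2e-10). TM7SF2 rose by 1.50 (adjusted p = 3.5e-06), SREBF2 by 0.75 (adjusted p = 6.11e-05), SREBF1 by 0.82 (adjusted p = 0.00272), HSD17B7 by 0.57 (adjusted p = 0.000507) and LSS by 0.54 (adjusted p = 0.000785). MVD, which makes the isoprenoid unit from mevalonate, changed by 0.85 (adjusted p = 0.00705), its single call, with overlapping arrays and a control mean below the median of all values. FADS2, a desaturase of polyunsaturated fatty acids, read 5.14, 5.09 and 5.28 with miR-NC and 6.10, 5.68 and 5.71 with miR-205, a rise without overlap of 0.66 (SE 0.19, adjusted p = 0.00308). Without _x_at and _s_at probe sets FADS2 was called higher in 0 of the 9 comparisons with miR-NC and lower in 2.

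With miR-429 in HEY, FADS2 rose by 0.56 (adjusted p = 0.0135), a call lost without miR-429 replicate 3 (adjusted p up to 0.0859), while its other probe set changed by -0.89. DHCR7 rose by 0.66 (adjusted p = 0.012), a call lost without miR-429 replicate 3 (adjusted p up to 0.0521). ACACA, which makes malonyl-CoA, changed by 0.34 (adjusted p = 0.012) with miR-205 and -0.37 (adjusted p = 0.00754) with miR-429, with the opposite sign on its other probe set in both. The first was lost without miR-205 replicate 1 (adjusted p up to 0.0562) and the second without miR-429 replicate 2 (adjusted p up to 0.0571).

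With miR-203a in HEY, 7 members were higher and 1 lower, against 5.82% and 7.33% of all genes (13.2% in all), with a median of 0.31 against 0.01. Besides EBP, STARD4, ACAT2, IDI1 and MSMO1, the members called were SQLE at 0.41 (adjusted p = 0.013) and FDPS at 0.37 (adjusted p = 0.0208). In this comparison the GAPDH 5′ arrays overlapped between groups, and those of the ACTB 5′ control, higher by 0.75, did not. SQLE was lost without miR-NC replicate 3 or miR-203a replicate 1 or 3 (adjusted p up to 0.0952) and FDPS without miR-NC replicate 1 or 2 or miR-203a replicate 1 or 2 (adjusted p up to 0.124), and with a separate fit for HEY 4 members were called in place of 8.

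In PC3 cells most called members rose with miR-203a and miR-205, the 2 groups whose GAPDH 5′ control was higher by 4.95 and 3.66. With miR-203a, 13 members were higher and 3 lower, against 31.1% and 25.0% of all genes (56.1% in all). With miR-205, 16 were higher and 4 lower, against 28.7% and 19.7% (48.4% in all). With miR-429, where the control changed by -0.50 with overlapping arrays, 8 were higher and 7 lower, against 16.3% and 29.7% (46.0% in all). That balance depends on the scaling: with array medians subtracted 14 members were higher and 2 lower (6389 and 1884 of all genes, whose median moved to 0.29), under quantile normalization 3 and 8, and with the mean of all probe sets 4 and 12. The median member changed by 0.26, 0.37 and -0.14 against 0.06, 0.05 and -0.13 over all genes. EBP, FDPS and IDI1 were higher with all 3 microRNAs, against 4.31% of genes, and no member was lower with all 3. With a separate fit per line or without the arrays labelled untransfected, HSD17B7 and LBR were lower with all 3, and under quantile normalization INSIG1 as well. FDPS left the higher group with a separate fit, and EBP and FDPS left it under quantile normalization. With the mean of all probe sets EBP left it and ACLY joined, and without _x_at and _s_at probe sets IDI1 left it.

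EBP in PC3 read 9.65, 9.78 and 10.18 with miR-NC, 12.36, 12.49 and 12.26 with miR-203a and 11.94, 11.46 and 10.91 with miR-205. Its treated arrays stood above the control, by 2.50 (SE 0.24, adjusted p = 5.6e-11) and 1.57 (SE 0.24, adjusted p = 1.2e-06). Of its 3 other probe sets, 2 were called higher in both. FDPS rose by 1.36 (adjusted p = 1.1e-12) and 0.90 (adjusted p = 1.77e-08), and IDI1, which read 10.54, 10.78 and 10.78 with miR-205, by 1.30 (adjusted p = 2.04e-11). FASN, the fatty acid synthase itself, read 5.25, 5.33 and 5.63 with miR-NC and 7.33, 7.40 and 7.29 with miR-203a, a rise without overlap of 1.94 (SE 0.27, adjusted p = 2.31e-07). With miR-205 it rose by 1.01 (adjusted p = 0.00259), and it was called in no other comparison with miR-NC.

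PMVK in PC3 read 6.53, 6.98 and 6.96 with miR-NC, 8.93, 8.54 and 8.32 with miR-203a and 5.50, 6.18 and 5.17 with miR-429. The control lay between the treated groups, which differed from it by 1.77 (SE 0.22, adjusted p = 1.18e-08) and -1.21 (SE 0.22, adjusted p = 2.61e-05). TM7SF2 read 5.03, 4.99 and 4.58 and 6.68, 6.55 and 6.33, a rise of 1.65 (SE 0.26, adjusted p = 1.17e-06) from a control mean below the median of all values. SCAP read 6.74, 6.62 and 6.98, 8.58, 8.21 and 7.96 and 8.28, 8.23 and 8.34 with miR-NC, miR-203a and miR-205, and rose by 1.47 (adjusted p = 6.94e-08) and 1.50 (adjusted p = 6.08e-08).

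The SREBP genes moved in PC3. SREBF1 read 4.59, 4.86 and 5.31 with miR-NC, 5.99, 6.13 and 6.09 with miR-203a and 6.09, 6.24 and 5.77 with miR-205, and rose without overlap by 1.15 (SE 0.24, adjusted p = 9.09e-05) and 1.12 (SE 0.24, adjusted p = 0.000177). SREBF2 read 6.65, 6.54 and 7.03 with miR-NC and 5.97, 6.03 and 5.69 with miR-429, a difference, without overlap, of -0.85 (SE 0.15, adjusted p = 3.3e-05). With miR-205 it rose by 0.44 (adjusted p = 0.0185), a call lost without miR-NC replicate 1 or 2 or miR-205 replicate 2 (adjusted p up to 0.11). Its probe set 201248_s_at changed by -1.24 and 0.67 in these comparisons.

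STARD4 in PC3 read 8.68, 8.67 and 8.66 with miR-NC and 10.35, 10.30 and 10.10 with miR-205, a rise of 1.58 (SE 0.15, adjusted p = 5.32e-11), where HEY showed a fall. With miR-203a its change of -0.05 (adjusted p = 0.794) did not pass. ELOVL6 read 10.38, 10.42 and 10.40 and 11.34, 11.28 and 11.29 with miR-NC and miR-205, and rose by 0.90 (SE 0.27, adjusted p = 0.00591). Other members called higher with miR-203a and with miR-205 were MVK (0.98 and 0.92), ACAT2 (1.07 and 0.78), DHCR7 (0.91 and 0.68), FADS2 (0.85 and 0.71) and TM7SF2 with miR-205 (0.89), at adjusted p of 0.0122 or less. Neither FADS2 rise was called without _x_at and _s_at probe sets. NSDHL fell with both (-0.42 and -0.57), while its other probe set rose by 1.99 and 1.54. HSD17B7 fell with miR-203a (-0.37), ACACA rose with it (0.36, with overlapping arrays), and MSMO1 rose with miR-205 (0.24, adjusted p = 0.0437). HSD17B7 was lost without miR-NC replicate 1 or 2 or miR-203a replicate 2 (adjusted p up to 0.105), ACACA without miR-NC replicate 2 (adjusted p up to 0.0655) and MSMO1 without miR-NC replicate 1, 2 or 3 or miR-205 replicate 1 or 2 (adjusted p up to 0.157).

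With miR-429 in PC3, IDI1 read 10.16, 10.29 and 10.11 and rose by 0.78 (SE 0.12, adjusted p = 1.94e-06), and HMGCS1 read 12.09, 12.06 and 12.25 against 11.49, 11.56 and 11.48 and rose by 0.62 (SE 0.18, adjusted p = 0.00431). Neither overlapped its control. EBP rose by 0.70 (adjusted p = 0.0165), a call lost without miR-NC replicate 1 or 2 or miR-429 replicate 2 (adjusted p up to 0.127). SQLE rose by 0.46 (adjusted p = 0.00123) on its brightest probe set, with the other 3 below miR-NC. ACLY was also higher, by 0.30 (adjusted p = 0.0407), STARD4 by 0.37 (adjusted p = 0.0427) and SC5D by 0.32 (adjusted p = 0.0148). These 3 calls were lost, ACLY without miR-NC replicate 1, 2 or 3 or miR-429 replicate 1, 2 or 3 (adjusted p up to 0.0914), STARD4 without miR-NC replicate 1, 2 or 3 or miR-429 replicate 1 or 3 (adjusted p up to 0.207) and SC5D without miR-NC replicate 3 or miR-429 replicate 3 (adjusted p up to 0.0845). FADS2, DHCR7 and HSD17B7 fell, with changes of -0.69 (adjusted p = 0.00386), -0.67 (adjusted p = 0.015) and -0.44 (adjusted p = 0.00936). DHCR7 was lost without miR-NC replicate 2 or miR-429 replicate 3 (adjusted p up to 0.0565) and HSD17B7 without miR-429 replicate 2 (adjusted p up to 0.0666). With array medians subtracted these 3 changes were -0.28, -0.26 and -0.032 and none was called, and FADS2 and DHCR7 were also lost under quantile normalization.

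Set against each other in PC3, the miR-205 and miR-203a arrays differed less in the GAPDH 5′ control (-1.29) than either did from miR-NC. There, 9 of the 30 members were called, 2 higher with miR-205 and 7 lower, against 12.9% and 11.9% of all genes (24.8% in all). STARD4 was higher with miR-205 by 1.63 (SE 0.15, adjusted p = 8.94e-11) and ELOVL6 by 1.48 (SE 0.27, adjusted p = 7.98e-05). SQLE differed by -0.88 (SE 0.11, adjusted p = 2.63e-07), and LBR by -0.54 (adjusted p = 0.00682), in the direction that each had against miR-NC. EBP, FASN, PMVK, TM7SF2 and FDPS were lower with miR-205, with differences of -0.93, -0.93, -0.79, -0.76 and -0.46. INSIG1 differed by 0.03 (adjusted p = 0.894), which did not pass. EBP, FASN, PMVK, TM7SF2 and LBR lost their calls in this comparison when certain single arrays were left out: EBP without miR-205 replicate 3 (adjusted p up to 0.0538), FASN without miR-205 replicate 3 (adjusted p up to 0.108), PMVK without miR-203a replicate 1 (adjusted p up to 0.0653), TM7SF2 without miR-203a replicate 1 or 2 or miR-205 replicate 1 (adjusted p up to 0.128) and LBR without miR-205 replicate 3 (adjusted p up to 0.0736).

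By limma's F-test of the differences in response, 19 of 30 members differed between lines with miR-203a (44.9% of all genes did), 25 with miR-205 (69.6%) and 20 with miR-429 (66.5%). LBR was among the members that did not pass with miR-203a (adjusted p = 0.718) or with miR-429 (0.4), though it passed with miR-205 (0.00741). Members called in opposite directions in 2 lines numbered 2 with miR-203a, 7 with miR-205 and 7 with miR-429, against 2.99%, 14.4% and 16.6% of all genes. On their brightest probe sets, HMGCS1, MSMO1, SC5D and SCD fell in HEY and rose in SKOV3 with miR-205. HMGCS1 and SC5D did the same with miR-429. The GAPDH 5′ control with miR-205 was higher by 3.92 in HEY and 3.66 in PC3, with no overlap of arrays, and overlapped in SKOV3. In SKOV3 with miR-429 the GAPDH middle and 3′ controls were -0.17 and -0.12 from miR-NC and did not overlap. The part of the controls in these differences was not tested. MSMO1 and STARD4 with miR-205 were called in opposite directions in HEY and PC3. The MSMO1 call in PC3 was lost when certain single arrays were left out.

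**Figure D5:**
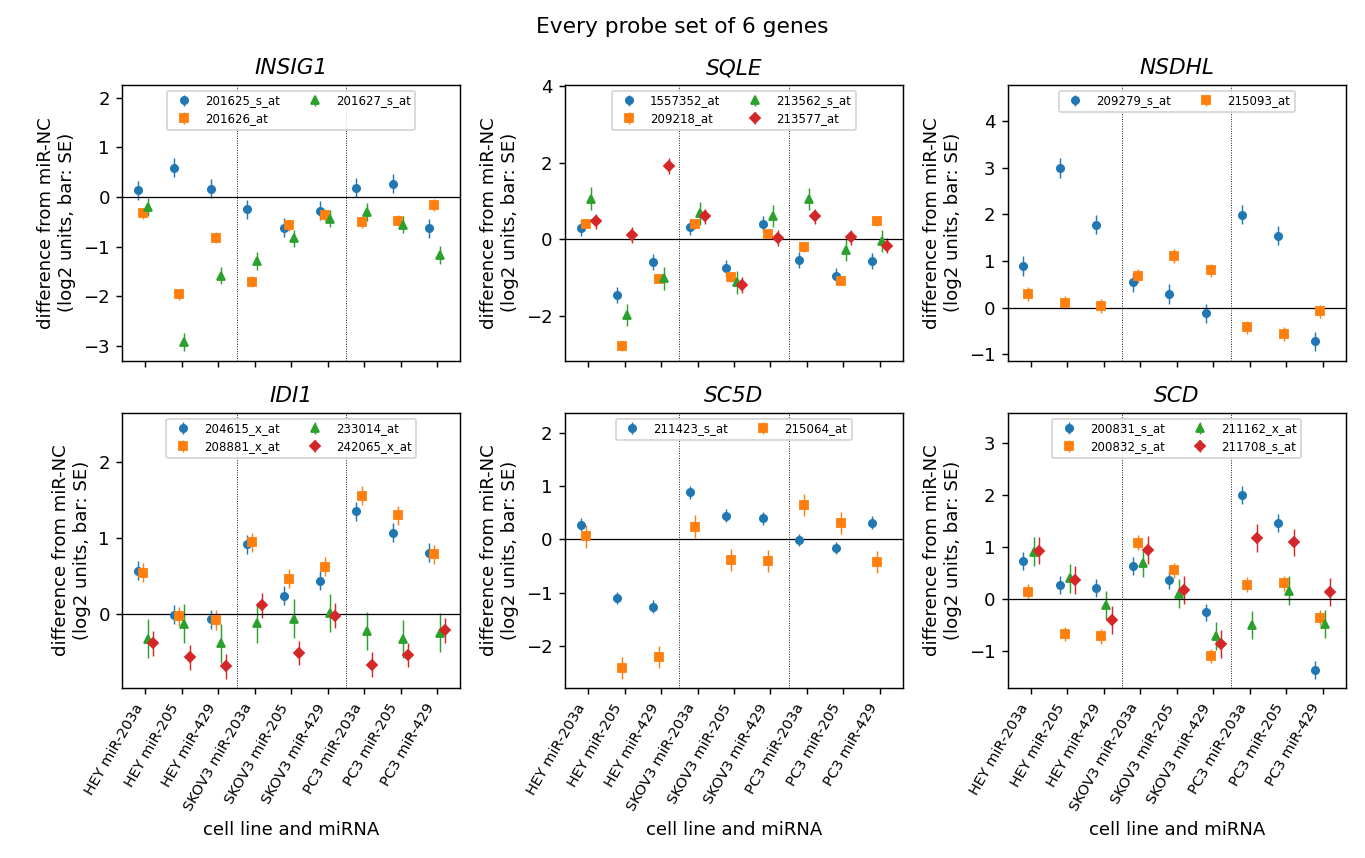
Difference from miR-NC (vertical axis, log2 units, bars are the SE) on every probe set annotated to 1 of 6 genes alone (markers), by line and microRNA (horizontal axis). The probe sets of INSIG1 and SQLE agree in sign in SKOV3 with miR-205, while those of NSDHL in HEY and PC3 and of IDI1 part by up to several log2 units.

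The probe sets of a gene often parted in HEY and PC3. For NSDHL, with miR-205 in HEY its brightest probe set changed by 0.10 and 209279_s_at by 2.99. In SKOV3 with that microRNA the same pair changed by 1.10 and 0.30. With the mean of all probe sets in place of the brightest, the sign of NSDHL turned in PC3 with miR-203a and miR-205, and that of EBP in HEY with miR-429.

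Levels of the members also differed between lines under miR-NC. SKOV3 against HEY, 12 members were higher and 15 lower, against 35.0% and 43.4% of all genes (78.4% in all). ELOVL6 read 6.54, 6.73 and 7.18 in SKOV3 and 11.83, 11.81 and 11.81 in HEY, a difference of -5.00 (SE 0.27, adjusted p = 1.18e-18), and SCD 8.41, 9.01 and 8.83 and 12.83, 12.80 and 12.87, a difference of -4.08 (SE 0.13, adjusted p = 6.08e-25). All SKOV3 arrays were below all HEY arrays for both. EBP differed by -3.27 and HMGCS1 by -2.92, but 1 other probe set of each was called higher in SKOV3. MVK was higher by 2.90 (adjusted p = 4.29e-22) and its 3 other probe sets had the same sign.

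PC3 against HEY, 3 members were higher and 18 lower, against 25.5% and 31.1% of all genes (56.6% in all). IDI1 differed by -2.13, STARD4 by -1.66 and FASN by -1.65, and ACSS2 read 9.06, 8.93 and 9.11 in PC3, 7.44, 7.53 and 7.51 in SKOV3 and 7.05, 6.70 and 7.19 in HEY, the highest in PC3 without overlap. PC3 against SKOV3, 11 were higher and 15 lower, against 44.2% and 36.9% (81.2% in all). ELOVL6 was higher in PC3 by 3.59, EBP by 3.46 and SCD by 3.25, and MVK differed by -3.36. The SCD difference turned sign with the mean of all its probe sets. The GAPDH 5′ control differed by 5.37 between SKOV3 and HEY and by -8.70 between PC3 and SKOV3, so the line and the state of its labelled RNA cannot be told apart in these values.

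Of other genes of sterol synthesis and its control, 8 of 12 listed were tested. In SKOV3, 4 rose and none fell with miR-203a, 2 rose and 2 fell with miR-205, and 3 rose and 3 fell with miR-429. With each microRNA these include ERLIN1 and ERLIN2, endoplasmic reticulum proteins that restrain SREBP release and take part in the breakdown of sterol enzymes. ERLIN1 rose by 2.12 (adjusted p = 3.67e-15), 2.26 (adjusted p = 2.34e-16) and 1.80 (adjusted p = 1.44e-13) with miR-203a, with miR-205 and with miR-429, and ERLIN2 by 2.04 (adjusted p = 1.92e-11), 3.07 (adjusted p = 2.34e-16) and 3.04 (adjusted p = 4.64e-16). The treated and miR-NC arrays overlapped for neither gene. Counts of genes that rose and fell in HEY were 6 and 1, 2 and 3, and 4 and 3 with miR-203a, with miR-205 and with miR-429, and in PC3 5 and 2, 6 and 2, and 3 and 2. Of all genes, 13.2%, 65.8% and 56.8% were called in HEY, 56.1%, 48.4% and 46.0% in PC3, and 11.9%, 25.6% and 22.1% in SKOV3.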

How the data were processed

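Log2 intensities of 45 Affymetrix expression arrays were used as deposited: the authors normalized them with RMA, per the submitters' processing notes. Array medians ran from 4.49 to 4.98. Of 54675 probe sets, 41097 name 1 gene symbol, 1801 several and 11777 none. The brightest probe set by mean over all arrays stood for a gene, which was tested if its highest group mean exceeded the median of all values, 4.89. limma 3.58.1 in R 4.3.3 fitted 15 group means to all 45 arrays (30 residual and 5.24 prior degrees of freedom), two-sided, with Benjamini-Hochberg adjustment over 15599 genes and a threshold of 0.05. Errors marked SE come from this fit. Line differences used its moderated F-test. Sequences and promoters are RefSeq's.

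Members and lists were chosen with earlier results of these data known. Array values are given for the 5 SREBP regulators, for members called alike with 1 microRNA in 2 or 3 lines, and for the 4 largest called changes per comparison, not repeated once given. Of each list of other genes (other sterol synthesis and its control, isoprenoid branches, uptake and lysosomal export, LXR and efflux, other fatty acid synthesis, oxidation), up to 2 called genes per comparison could be named. Some listed genes were not analysed here.

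On simulated data for HEY with miR-203a, over 15599 genes, 84 of 100 changes of 1 log2 unit and 29 of 100 of 0.5 were called, with 7 of 15399 unchanged genes. Far fewer genes were changed there than were called in the data, which alters the adjusted p. Those shares check the fit and do not give the share of true changes called here. The alternatives were a fit of each line alone, a block for the replicate number, no untransfected arrays, quantile normalization, array medians subtracted, no filter, a stricter filter (7.44), the mean of all probe sets, no _x_at or _s_at probe sets, a trended robust prior, and each array left out. The number of arrays limits the precision.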

Additional observations from a re-analysis of the deposited data

Results flagged for a closer look

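Each result here was picked out because the response to a microRNA differed between lines by limma's F-test of the difference itself, and, for single genes, because the gene was also called in opposite directions in 2 lines. The members that differed numbered 19 with miR-203a, 25 with miR-205 and 20 with miR-429, of 30, against 44.9%, 69.6% and 66.5% of all genes. Adjusted p-values of the F-test follow, with the log2 changes in the lines that opposed each other.

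With miR-203a, HSD17B7 changed by 0.60 in SKOV3 and -0.37 in PC3 (F-test adjusted p = 0.000507), and NSDHL by 0.68 and -0.42 (6.57e-05). HSD17B7 has 1 probe set, marked _x_at, so its values here and with miR-429 could not be checked on another. With the mean of all probe sets NSDHL in PC3 was 0.79 and so rose in all 3 lines, and the HSD17B7 call in PC3 was lost without miR-NC replicate 1 or 2 or miR-203a replicate 2 (adjusted p up to 0.105).

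With miR-205, the changes in HEY and SKOV3 were -1.15 and 0.48 for HMGCS1 (F-test adjusted p = 1.17e-06), -1.10 and 0.45 for SC5D (3.13e-10), and -0.67 and 0.55 for SCD (1.62e-06). MSMO1 changed by -1.42 in HEY, 0.36 in SKOV3 and 0.24 in PC3 (1.68e-13). MVK changed by 1.09, -0.36 and 0.92 in the same order (2.44e-09). NSDHL changed by 1.10 in SKOV3 and -0.57 in PC3 (1.2e-08). STARD4 changed by -2.17 in HEY and 1.58 in PC3 (7.56e-16), on the 1 probe set that names it alone. The other probe set of HMGCS1 had the opposite sign in HEY, and that of SC5D in SKOV3. With the mean of all probe sets the signs of SCD in HEY, MVK in SKOV3 and NSDHL in PC3 turned. The calls of HMGCS1 and MVK in SKOV3 and of MSMO1 in PC3 were lost when certain single arrays were left out.

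With miR-429, DHCR7 changed by 0.66 in HEY and -0.67 in PC3 (F-test adjusted p = 0.00194), FADS2 by 0.56 and -0.69 (0.000715), SQLE by -1.04 and 0.46 (2.33e-09) and STARD4 by -0.50 and 0.37 (0.000985). HMGCS1 changed by -1.36 in HEY, 0.72 in SKOV3 and 0.62 in PC3 (4.67e-09), and SC5D by -1.26, 0.40 and 0.32 (1.47e-11). The other probe set of HMGCS1 had the opposite sign in HEY, and that of SC5D in SKOV3 and PC3. The other SQLE probe sets lay below miR-NC in PC3. With array medians subtracted the PC3 calls of DHCR7, FADS2 and HSD17B7 were lost, and FADS2 in HEY turned to -0.17 with the mean of all probe sets and to -0.89 (adjusted p = 0.000908 by limma) without the probe sets marked _x or _s. HSD17B7 changed by 0.39 in SKOV3 and -0.44 in PC3 (0.00146). Groups of 3 arrays are too small for a test of single arrays that stand apart.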

How the results depend on the processing

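Of 217 member calls in the 13 comparisons, 123 kept direction and threshold under every processing alternative that tested them and with each array left out. The separate fits tested 143 of the calls, and the fit without _x_at and _s_at probe sets 153. Of these 153, 130 were kept and 14 turned sign. Calls kept numbered 217 of 217 without the untransfected arrays, with the stricter filter and with the trended robust prior, 215 with no filter, 210 with array medians subtracted, 201 with quantile normalization, 132 of 143 with a separate fit per line and 166 with the mean of all probe sets. Leaving out the untransfected arrays also added calls, with 12 members called in HEY with miR-203a in place of 8. The replicate numbers did not pair the arrays (median correlations of same-numbered deviations of 0.0057 to 0.047 within the 3 lines). With the replicate number as a block 213 calls were kept, and the members called numbered 8, 24 and 16 in HEY, 11, 12 and 11 in SKOV3 and 16, 19 and 13 in PC3. In HEY with miR-203a the count was 4 with a separate fit and 5 to 7 with 1 array left out, and in PC3 with miR-429 9 to 11 with 1 array left out. With the mean of all probe sets, 6 members were called in SKOV3 with miR-205 and 6 with miR-429. Without _x_at and _s_at probe sets, which left 20 members, the counts were 5, 8 and 6 in SKOV3, 9, 12 and 8 in PC3, and 15, 13 and 17 for SKOV3 against HEY, PC3 against HEY and PC3 against SKOV3. There IDI1 turned to -0.33 in HEY with miR-203a, to -0.13 and -0.066 in SKOV3 with miR-203a and miR-205, to -0.23, -0.34 and -0.25 in PC3 and to 0.050 for SKOV3 against HEY. SC5D turned to -0.39 and -0.41 in SKOV3 and -0.42 in PC3 with miR-205, miR-429 and miR-429, and to -0.081 and 0.46 for SKOV3 against HEY and PC3 against SKOV3. FADS2 turned to -0.89 in HEY with miR-429 and -0.20 for PC3 against HEY. With the mean of all probe sets, reversed values in HEY were SCD 0.091 and ACACA -0.072 with miR-205 and EBP -0.14 and FADS2 -0.17 with miR-429. In SKOV3 they were MVK 0.0058 with miR-205 and SC5D -0.0071 with miR-429, and in PC3 NSDHL 0.79 and 0.49 with miR-203a and miR-205, ACACA -0.28 with miR-203a, and SQLE -0.083 and SC5D -0.051 with miR-429. Between lines they were SQLE 0.67, SREBF1 -0.54 and ACLY 0.14 (SKOV3 against HEY), and HMGCS1 -0.83, NSDHL -0.41, INSIG1 -0.26 and SCD -0.15 (PC3 against SKOV3). With array medians subtracted, SCD in PC3 with miR-429 was 0.051. Beyond the probe set used, the cause was not tested. The number of arrays limits how small a change can be called. On simulated data 29 of 100 changes of 0.5 were called, but far fewer genes were changed there than were called here, so that share does not carry over.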

Other observations

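In SKOV3, of 8 genes of the isoprenoid branches, which make geranylgeranyl and dolichol chains and attach isoprenoids to proteins, 2 rose and 1 fell with miR-203a, 1 rose and none fell with miR-205, and 1 rose and none fell with miR-429. Of these, GGPS1 rose by 0.53 (adjusted p = 0.0181) and PDSS2 changed by -0.80 (adjusted p = 2.48e-06) with miR-203a, and PGGT1B rose by 1.11 (adjusted p = 9.6e-07) with miR-429. Of 8 tested genes of cholesterol uptake and lysosomal export, 2, 4 and 0 rose and 0, 1 and 1 fell with miR-203a, with miR-205 and with miR-429. MYLIP, a ubiquitin ligase for lipoprotein receptors, rose by 0.80 (adjusted p = 2.21e-06) with miR-203a and 0.75 (adjusted p = 3.23e-06) with miR-205. VLDLR, such a receptor, rose by 0.76 (adjusted p = 0.0257) and 0.70 (adjusted p = 0.0233). Of 4 tested genes of LXR and efflux, ABCA1, the exporter of cholesterol, rose with miR-205 by 0.72 (adjusted p = 0.00925), and no other call was made in SKOV3.

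Among 18 tested genes of other fatty acid and glycerolipid synthesis, 1 rose and 1 fell in SKOV3 with miR-203a, 3 rose and 2 fell with miR-205, and 5 rose and none fell with miR-429. ELOVL7, an elongase of saturated chains, rose by 1.45 (adjusted p = 2.12e-06) with miR-203a and 1.59 (adjusted p = 2.56e-07) with miR-429 and changed by -1.61 (adjusted p = 1.4e-07) with miR-205. Of 14 tested genes of fatty acid oxidation, 0, 4 and 1 rose and 1, 1 and 2 fell. In HEY the isoprenoid genes that rose and fell numbered 1 and 1, 3 and 4, and 0 and 2 with miR-203a, with miR-205 and with miR-429, and in PC3 2 and 2, 2 and 1, and 3 and 0. The uptake genes numbered 2 and 0, 4 and 2, and 2 and 5 in HEY, and 3 and 1, 4 and 1, and 2 and 2 in PC3. The LXR genes numbered 1 and 0, 1 and 1, and 1 and 1 in HEY, and 2 and 0, 1 and 0, and 0 and 1 in PC3. The other fatty acid genes numbered 3 and 1, 6 and 8, and 4 and 7 in HEY, and 7 and 4, 5 and 5, and 7 and 0 in PC3, and the oxidation genes 0 and 0, 6 and 2, and 4 and 5 in HEY, and 8 and 3, 6 and 1, and 2 and 5 in PC3. Of all genes, 11.9%, 25.6% and 22.1% were called in SKOV3, 13.2%, 65.8% and 56.8% in HEY, and 56.1%, 48.4% and 46.0% in PC3. The HEY and PC3 counts stand beside the control probe sets that moved there, and their part was not tested.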
